A study of Mus musculus with 6 samples.

Results

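The genes described here are 56 DNA replication genes that build, license and fire replication origins or travel with the replication fork. They form a list of gene names that was drawn up with earlier results of these data known, and all 56 had a probe set with their symbol alone, among 19937 genes tested. RNA from pooled polysome fractions, that is, mRNA carrying several ribosomes, was measured on arrays in #483, a clone of mouse T-cell acute lymphoblastic leukaemia cells with the strain given as C57BL6. One group of 3 samples received 4EGI-1 at 100 µM for 2 h. This compound keeps eIF4E, the protein that binds the mRNA cap, from joining the scaffold protein eIF4G. The other 3 samples are titled untreated, although the protocol names the solvent DMSO, so it is not settled whether they received solvent. The design text calls the samples biological replicates, but all come from 1 clone.

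Replication begins when the origin recognition complex, with Cdc6 and Cdt1, loads the MCM helicase onto DNA. In S phase the kinases Cdc7-Dbf4 and the cyclin-dependent kinases turn it into the active helicase by adding Cdc45 and the GINS complex. Polymerase alpha-primase then lays primers, polymerase epsilon copies the leading strand and polymerase delta the lagging strand, held by the sliding clamp PCNA. Proliferating cells such as leukaemic T cells depend on this machinery.

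After 4EGI-1 the replication genes moved in opposite directions, and within polymerase epsilon some subunits rose and others fell. The catalytic subunits of the 3 replicative polymerases, 4 of the 6 MCM subunits, topoisomerases I and II alpha, DNA ligase I, Mcm10 and claspin rose. Geminin, the smaller subunits of polymerase epsilon and of the single-strand binding protein RPA, 3 of 4 GINS subunits, 2 clamp loader subunits and the flap nuclease Fen1 fell. Of the 56 genes, 19 rose, 12 fell and 25 did not pass, by limma with an adjusted p under 0.05 over all genes tested. Among all genes 22.9% passed, 11.5% higher and 11.5% lower. All 56 genes had a signal above the table's median, at mean log2 signals of 7.08 to 13.64. Of the 8437 genes in that signal range 43% passed, 20% higher and 23% lower, while 33.9% of the replication genes rose and 21.4% fell. The share that fell was thus close to that of genes of like signal. The median log2 difference (4EGI-1 minus untreated) was 0.06 over the 56 genes and -0.03 over all genes. At least 1.5-fold, 8 genes were higher and 1, Rpa3, was lower, against 3.72% and 1.57% of all genes, or 6.52% and 3.46% of genes in the same signal range.

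The number of genes that fell depended on single arrays, since it was 7 without untreated replicate 2 or without 4EGI-1 replicate 1, while the number that rose stayed between 17 and 19 when any array was left out. Only polysomal RNA was measured, so a change in the amount of an mRNA and a change in its share on polysomes cannot be told apart. In a bulk sample, fewer cells in S phase and less RNA per cell cannot be told apart either.

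**Figure D1:**
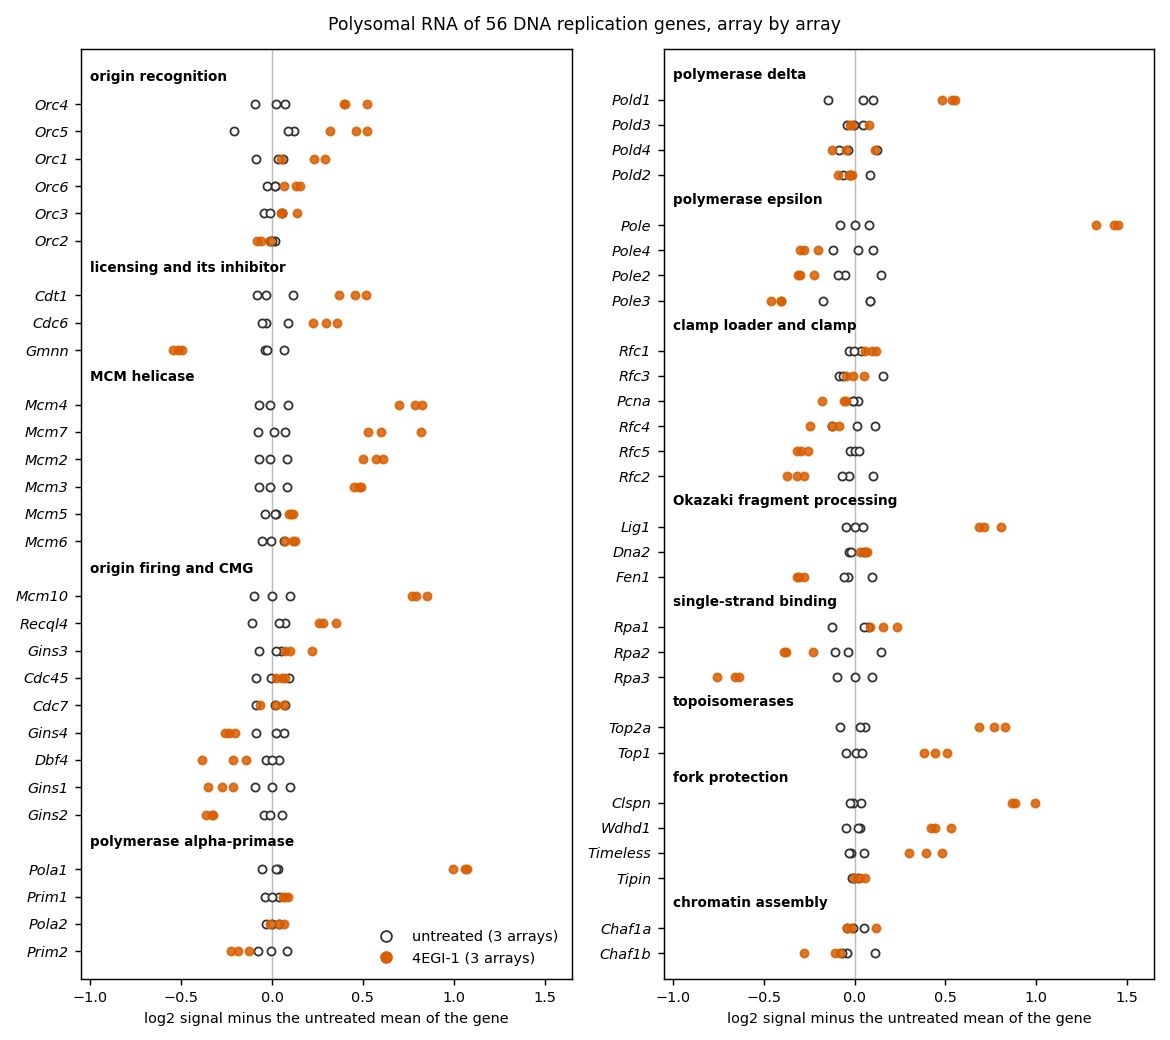
Log2 signal of each of the 56 genes on each array minus the gene's untreated mean, grouped by role, with 3 untreated arrays (open points) and 3 arrays after 4EGI-1 (filled points). Pole and Pola1 lie farthest to the right and Rpa3 farthest to the left, and in 26 genes all treated arrays lie above all untreated ones.

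**Figure D2:**
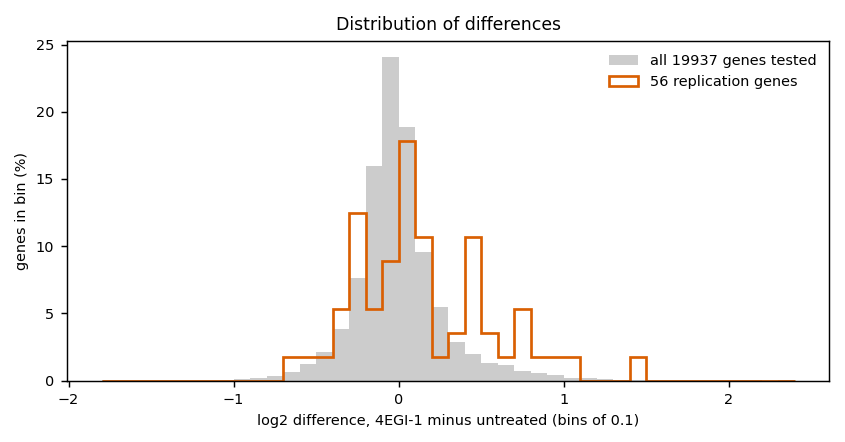
Share of genes in bins of 0.1 of the log2 difference, for all 19937 genes tested (grey) and the 56 replication genes (outline). The replication genes run from -0.69 to 1.40.

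Median log2 signal was 6.38 to 6.43 per array, as the deposited RMA values set it. Precision is limited by having 3 arrays a group. Of 9 measured T-lineage markers, all lay at or above percentile 79.2 of genes by signal, with mean log2 levels of 11.29 to 11.31 in untreated and 11.18 to 11.20 in treated samples; 2 rose and 3 fell. Over all arrays, the 3 B-lineage markers averaged 5.27 to 5.49 and the 4 myeloid markers 5.67 to 5.88. The 4 stromal and endothelial markers averaged 7.07 to 7.22. None of these or the 1 measured erythroid marker passed the test. The stromal and endothelial markers ran from percentile 29.2 to 78.3, with Pecam1 the highest and close to the lowest T-lineage marker. Above the median gene lay 3 of these 4, against 1 of the 3 B-lineage and 1 of the 4 myeloid markers.

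Many replication genes are known targets of E2F transcription factors, and promoters were set beside the polysome values to show which members share such words. RefSeq (GRCm38.p6) windows of 250 bases upstream of the start were found for 46 of the 56 genes. They were searched on both strands for the E2F-type words TTTCCCGC, TTTGGCGC, TTTCGCGC and TTTGCCGC, and for CCAAT, the word bound by NF-Y. An E2F-type word was in 10 of the 46 (21.7%), against 2.88% of the 15613 tested genes with a window and 2.16% of all 27025 genes with one. CCAAT was in 25 (54.3%), against 38.8% and 37.5%. The E2F-type words were in 3 of 16 genes that rose (18.8%), 1 of 7 that fell (14.3%) and 6 of 23 that did not pass (26.1%). Over all tested genes they were in 4.07% of those that rose and 4.19% of those that fell. All 5 MCM subunit genes with a window held CCAAT and 3 held an E2F-type word. The windows of 5 genes follow, 5′ to 3′ on the gene's strand, with E2F-type words and CCAAT (or their reverse complements) in capitals: 3 MCM genes that share CCAAT, then a gene that rose and a gene that fell with an E2F-type word each.
Mcm3 (chr1:20820313-20820562, minus strand): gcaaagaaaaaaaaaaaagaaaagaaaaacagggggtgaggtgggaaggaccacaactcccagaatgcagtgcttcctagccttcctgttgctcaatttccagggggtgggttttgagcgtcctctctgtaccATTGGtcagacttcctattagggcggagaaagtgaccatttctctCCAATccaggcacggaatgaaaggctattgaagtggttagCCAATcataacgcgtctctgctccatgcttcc
Mcm5 (chr8:75109259-75109508, plus strand): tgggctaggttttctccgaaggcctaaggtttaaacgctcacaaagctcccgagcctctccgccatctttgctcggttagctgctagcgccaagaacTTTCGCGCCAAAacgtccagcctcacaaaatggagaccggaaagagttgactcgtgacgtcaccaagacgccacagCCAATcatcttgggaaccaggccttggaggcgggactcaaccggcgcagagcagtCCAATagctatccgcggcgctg
Mcm6 (chr1:128359706-128359955, minus strand): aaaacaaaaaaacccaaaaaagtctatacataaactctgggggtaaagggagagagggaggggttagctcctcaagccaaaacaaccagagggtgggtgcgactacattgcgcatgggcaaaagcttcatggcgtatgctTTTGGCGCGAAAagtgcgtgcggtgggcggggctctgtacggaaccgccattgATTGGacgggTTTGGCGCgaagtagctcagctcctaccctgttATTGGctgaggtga
Pola1 (chrX:93632156-93632405, minus strand): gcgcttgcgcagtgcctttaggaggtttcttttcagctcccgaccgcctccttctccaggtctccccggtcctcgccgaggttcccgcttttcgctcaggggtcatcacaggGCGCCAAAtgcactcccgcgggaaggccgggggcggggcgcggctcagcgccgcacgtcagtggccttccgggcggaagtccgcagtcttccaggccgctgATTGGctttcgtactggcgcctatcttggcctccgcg
Pole4 (chr6:82652875-82653124, minus strand): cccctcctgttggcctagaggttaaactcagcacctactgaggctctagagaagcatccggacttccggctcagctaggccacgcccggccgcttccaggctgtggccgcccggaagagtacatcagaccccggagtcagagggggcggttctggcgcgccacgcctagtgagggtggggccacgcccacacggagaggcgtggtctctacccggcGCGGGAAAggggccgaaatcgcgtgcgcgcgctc
In Mcm5, and upstream in Mcm6, a pair of E2F-type words on opposite strands overlap, and Mcm6 holds a further one nearer the start. Of these 3 MCM genes Mcm3 rose, while Mcm5 and Mcm6 did not pass. Mcm7, the other MCM gene with an E2F-type word, is not printed and rose by 0.65. Pole4, the 1 gene that fell with such a word, lost its call in 8 of 16 alternatives. Its second, overlapping window (chr6:82652866-82653115) is not printed and holds the same word. A word match is a description and not a shown binding site.

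The catalytic DNA polymerase subunits Pola1, Pold1 and Pole all rose, with a median log2 difference of 1.04, while of the 9 other subunits 0 rose, 3 fell and 6 did not pass, with a median of -0.05. These 9 include Prim1, which is catalytic for primer synthesis and did not pass. The 95% confidence intervals of the 3 catalytic subunits began at 0.34 or above, and those of the 9 others ended at 0.20 or below. No test of the sets was made, because the subunits were chosen with earlier results known.

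Pole, the catalytic subunit of the leading-strand polymerase epsilon, had log2 signals of 8.71, 8.79 and 8.87 in untreated and 10.24, 10.12 and 10.22 in treated samples. Every treated array lay more than 1 log2 unit above every untreated one. The rise was 1.40 ± 0.07 on the log2 scale (SE; limma adjusted p = 2.96e-05), or 2.64-fold, which ranked 30th among increases of all genes. Its partners went the other way. Pole2, the B subunit, read 10.25, 10.05 and 10.01 untreated and 9.88, 9.79 and 9.80 treated, a fall of 0.28 ± 0.08 (SE; limma adjusted p = 0.0327). The histone-fold subunit Pole3 read 9.89, 10.15 and 10.15 untreated against 9.66, 9.66 and 9.60 treated, and fell by 0.42 ± 0.08 (SE; limma adjusted p = 0.00705). Pole4, which pairs with Pole3, read 10.05, 10.19 and 10.27 untreated and 9.89, 9.97 and 9.87 treated, a fall of 0.26 ± 0.07 (SE; limma adjusted p = 0.0376). The groups did not overlap in any of the 4 genes. The falls of Pole2 and Pole4 were narrow calls. Pole2 reached adjusted p = 0.0507 to 0.0896 without untreated replicate 1 or 2 or any treated array, and Pole4 0.0538 to 0.126 without untreated replicate 2 or 3 or any treated array. After quantile normalization Pole4 was at 0.0574. Within arrays, the log2 ratio of Pole to Pole3 lay 1.73 to 1.89 above its untreated mean after treatment, and between -0.08 and 0.09 of it in untreated samples. For Pole2 the ratio lay 1.64 to 1.74 above its untreated mean, against -0.22 to 0.17 untreated. For Pole4 it lay 1.53 to 1.73 above, against -0.03 to 0.04 untreated.

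Pola1, the DNA-synthesising subunit of polymerase alpha, also rose, with groups that did not overlap. It read 10.15, 10.24 and 10.23 untreated and 11.27, 11.20 and 11.28 treated, a rise of 1.04 ± 0.06 (SE; limma adjusted p = 5.34e-05). The other 3 subunits of the complex did not pass. Pola2, the B subunit, read 9.93, 9.86 and 9.89 untreated and 9.93, 9.88 and 9.96 treated, with an interval of the log2 difference from -0.11 to 0.16. The primase catalytic subunit Prim1 read 12.26, 12.18 and 12.22 untreated and 12.31, 12.29 and 12.28 treated, so this catalytic subunit differed by only 0.07 ± 0.06 (SE). The large primase subunit Prim2 read 10.62, 10.46 and 10.53 untreated and 10.35, 10.31 and 10.41 treated. Its groups did not overlap, and the difference was -0.18 ± 0.07 (SE; limma adjusted p = 0.103), which passed in a fit without dimmer genes, kept from the table's median upward (0.0365), and with a trended robust prior (0.0189).

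In polymerase delta the catalytic subunit Pold1 rose and its 3 partners did not pass. Pold1 read 8.48, 8.67 and 8.73 untreated and 9.11, 9.18 and 9.16 treated, a rise of 0.52 ± 0.08 (SE; limma adjusted p = 0.0019). This was a smaller rise than that of Pole or Pola1, and the interval of Pold1 (0.34 to 0.70) lay below those of Pola1 (0.90 to 1.18) and Pole (1.24 to 1.56). Pold2, the B subunit, read 11.00, 10.85 and 10.89 untreated and 10.88, 10.82 and 10.90 treated. Pold3, which binds PCNA, read 10.81, 10.76 and 10.72 untreated and 10.75, 10.74 and 10.84 treated. Pold4, the smallest subunit, read 7.32, 7.16 and 7.11 untreated and 7.31, 7.07 and 7.15 treated. In these 3 genes the groups overlapped, and their intervals together ran from -0.22 to 0.18.

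**Figure D3:**
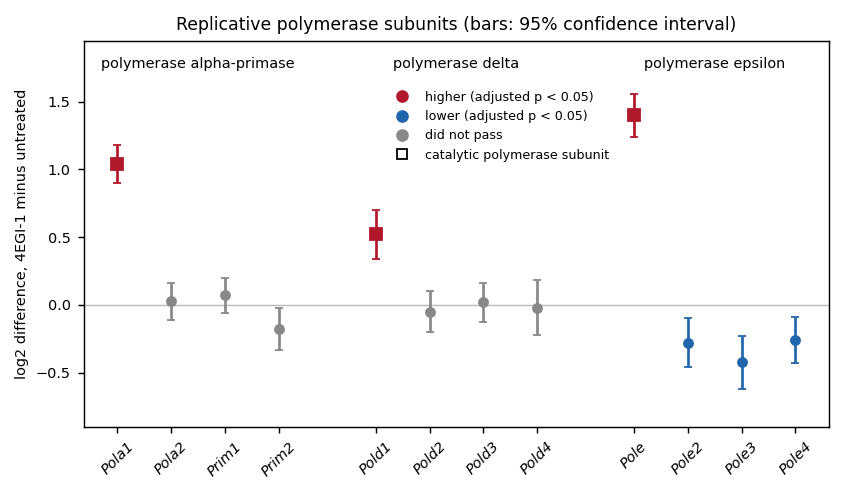
Log2 difference (4EGI-1 minus untreated, 3 arrays each) with its 95% confidence interval for the subunits of the 3 replicative polymerases, coloured by limma call. The squares mark the catalytic subunits Pola1 (1.04), Pold1 (0.52) and Pole (1.40), and every other subunit lies at 0.07 or below.

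Origin recognition subunits mark origins. Of the 6 genes 2 rose, 0 fell and 4 did not pass. Orc4 rose by 0.44 ± 0.07 (SE) and Orc5 by 0.43 ± 0.10, the latter at adjusted p = 0.0546 without 4EGI-1 replicate 1. The differences of Orc1, Orc2, Orc3 and Orc6 ran from -0.05 to 0.19. The treated arrays of Orc6 all lay above its untreated ones, but by 0.12 ± 0.06 on average, which passed with a trended robust prior alone (adjusted p = 0.0308).

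Among licensing factors the loader and its inhibitor went opposite ways. Cdt1, which brings the MCM helicase to origins, read 8.19, 7.99 and 8.04 untreated and 8.53, 8.44 and 8.59 treated, a rise of 0.45 ± 0.08 (SE; limma adjusted p = 0.00368). Gmnn encodes geminin, which binds and blocks Cdt1. It read 10.51, 10.41 and 10.42 untreated and 9.95, 9.93 and 9.90 treated, a fall of 0.52 ± 0.06 (SE; limma adjusted p = 6.27e-04). The groups did not overlap in either gene, and the log2 ratio of Cdt1 to Gmnn lay 0.88 to 1.06 above its untreated mean in treated arrays, against -0.05 to 0.05 in untreated ones. Cdc6, the ATPase that loads MCM with Cdt1, rose by 0.29 ± 0.07 (SE), with an adjusted p of 0.0541 to 0.0566 without untreated replicate 1 or 2 or 4EGI-1 replicate 3.

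The 6 subunits of the MCM ring did not move alike, although in all 6 the treated arrays lay above the untreated ones. Mcm4 read 10.68, 10.62 and 10.78 untreated and 11.52, 11.39 and 11.48 treated, a rise of 0.77 ± 0.07 (SE; limma adjusted p = 1.94e-04). Mcm7 read 10.03, 10.12 and 10.18 untreated and 10.71, 10.64 and 10.93 treated, a rise of 0.65 ± 0.09 (SE; limma adjusted p = 0.00119). The third treated array was the highest for Mcm7. Mcm2 and Mcm3 rose by 0.56 ± 0.07 and 0.48 ± 0.06. Mcm5 and Mcm6 did not pass, at 0.11 ± 0.06 and 0.10 ± 0.06, and their intervals (-0.02 to 0.24 and -0.04 to 0.24) ended below the interval of Mcm3, which began at 0.33. The subunits form a ring of equal parts in the cell, but the arrays show polysomal mRNA and not protein.

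Of 9 factors that turn the loaded ring into a working helicase, 2 rose, 3 fell and 4 did not pass. Mcm10, which acts at helicase activation, read 9.32, 9.42 and 9.52 untreated and 10.21, 10.19 and 10.27 treated, a rise of 0.81 ± 0.07 (SE; limma adjusted p = 1.74e-04). Recql4, a RecQ-family helicase needed for initiation, rose by 0.30 ± 0.07 from the lowest signal of the 56 genes, with an adjusted p of 0.0532 without untreated replicate 2 and 0.0573 without 4EGI-1 replicate 3. Of the 4 GINS genes, 3 fell. Gins2 read 11.15, 11.25 and 11.18 untreated and 10.86, 10.87 and 10.83 treated, a fall of 0.34 ± 0.06 (SE; limma adjusted p = 0.0042).

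Gins1 and Gins4 fell by 0.28 ± 0.07 and 0.23 ± 0.07 (SE), and these calls ended when single arrays were left out. Gins1 was at adjusted p = 0.0607 to 0.0809 without untreated replicate 1 or 2 or 4EGI-1 replicate 1 or 2, and Gins4 at 0.0721 to 0.116 without untreated replicate 2 or 3 or any treated array. Gins3 differed by 0.13 ± 0.07, with all treated arrays above the untreated ones, and Cdc45, their partner in the active helicase, by 0.05 ± 0.07, and neither passed. The kinase gene Cdc7 differed by 0.01 ± 0.07. Its activator Dbf4 differed by -0.24 ± 0.08 (limma adjusted p = 0.0551), with groups that did not overlap, and it passed in fits without dimmer genes, kept from the table's median (0.0154) or 25th percentile (0.0347) upward, with a trended robust prior (0.00568), with array weights (0.0454) and without 4EGI-1 replicate 2 (0.0401).

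The clamp and its loader held level or fell. Pcna, the sliding clamp, had the highest signal of the 56 genes. It read 13.71, 13.68 and 13.68 untreated and 13.63, 13.64 and 13.51 treated, a difference of -0.10 ± 0.06 (SE; limma adjusted p = 0.339), which passed with a trended robust prior alone (0.0444). Its dimmer probe set differed by -0.06 ± 0.06. RefSeq lists pseudogenes of Pcna, so which copies these probe sets read is uncertain. The small clamp loader subunit Rfc2 read 10.45, 10.32 and 10.28 untreated and 10.07, 9.98 and 10.03 treated, a fall of 0.32 ± 0.07 (SE; limma adjusted p = 0.0106). Rfc5 read 10.61, 10.64 and 10.66 untreated and 10.34, 10.38 and 10.32 treated, a fall of 0.29 ± 0.06 (SE; limma adjusted p = 0.00807). The small subunits Rfc3 and Rfc4 differed by 0.00 ± 0.08 and -0.15 ± 0.08, and the large subunit Rfc1 by 0.09 ± 0.06, without passing.

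Enzymes that join Okazaki fragments, the short pieces of the lagging strand, diverged. Lig1, the ligase, read 9.64, 9.69 and 9.73 untreated and 10.37, 10.40 and 10.49 treated, a rise of 0.74 ± 0.06 (SE; limma adjusted p = 1.54e-04). Fen1, the nuclease that trims the flap before ligation, read 8.71, 8.58 and 8.56 untreated and 8.31, 8.34 and 8.30 treated, a fall of 0.30 ± 0.06 (SE; limma adjusted p = 0.0114). Dna2, a nuclease and helicase that cuts longer flaps, differed by 0.05 ± 0.06 and did not pass.

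RPA, which coats single-stranded DNA, fell in its smaller subunits. Rpa3, the smallest, read 11.03, 11.13 and 11.22 untreated and 10.47, 10.49 and 10.37 treated. Its fall of 0.69 ± 0.07 (SE; limma adjusted p = 3.53e-04) was the largest of the 56 genes and ranked 174th among decreases of all genes. Its dimmer probe set fell by 0.42 ± 0.06 in a fit of every probe set (limma adjusted p = 0.00218). That probe set was assigned to Rpa3 by the annotation alone, and which copy it reads was not checked. Rpa2 read 9.87, 9.69 and 9.62 untreated and 9.35, 9.34 and 9.50 treated, a fall of 0.33 ± 0.08 (SE; limma adjusted p = 0.0234). This call ended without untreated replicate 1 or 2 or 4EGI-1 replicate 1 or 2 (0.0512 to 0.0729). The large DNA-binding subunit Rpa1 differed by 0.16 ± 0.08, with an interval from -0.02 to 0.34.

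Over RFC, RPA and the chromatin assembly factor CAF-1, the 3 largest subunits (Rfc1, Rpa1 and Chaf1a) had a median log2 difference of 0.09 and none passed, while of the 7 smaller subunits 4 fell and 0 rose, with a median of -0.29. Chaf1a and Chaf1b of CAF-1, which places histones behind the fork, differed by 0.01 ± 0.07 and -0.16 ± 0.08 (SE), and neither passed. The catalytic polymerase subunits rose, and the largest subunits of these 3 complexes did not pass. In Rfc1 and Rpa1 all treated arrays still lay above the untreated ones, while in Chaf1a the groups overlapped. Whether subunit size or catalytic role goes with a rise was not tested.

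The topoisomerases, which relieve the twist ahead of the fork, both rose. Top2a read 11.45, 11.31 and 11.42 untreated and 12.22, 12.08 and 12.16 treated, a rise of 0.76 ± 0.07 (SE; limma adjusted p = 1.93e-04). A second Top2a probe set at a log2 signal of 4.47 untreated differed by -0.18 ± 0.12 and did not pass. With the mean of both probe sets the rise of Top2a was 0.29 (limma adjusted p = 0.0373). Top1 rose by 0.44 ± 0.06.

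Of the fork protection genes 3 rose and 1 did not pass. Clspn encodes claspin, which links stalled forks to the checkpoint kinase Chk1. It read 9.07, 9.03 and 9.01 untreated and 9.90, 9.92 and 10.03 treated, a rise of 0.91 ± 0.06 (SE; limma adjusted p = 7.64e-05). Wdhd1, which ties polymerase alpha to the helicase, rose by 0.46 ± 0.06 and Timeless by 0.39 ± 0.07. Tipin, the partner of Timeless, differed by 0.03 ± 0.06, and its interval (-0.10 to 0.16) ended below that of Timeless, which began at 0.23.

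Over all roles, 7 of the 13 groups held more genes that rose than fell, a count that ran from 6 to 8 over the alternatives. Polymerase alpha-primase and polymerase delta counted on 1 gene each, with 3 that did not pass. The groups of treated and untreated arrays did not overlap in 26 genes that were higher and 16 that were lower, together 42 of 56, against 17% and 20.8% of all genes, together 37.9%. All 56 genes lay above the table's median signal, and the share without overlap among genes of like signal was not worked out. The 25 genes that did not pass differed by -0.24 to 0.19, and the 95% confidence interval of each lay within a 1.5-fold change in either direction.

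Other lists of genes around the fork were set beside these. Among all genes 11.5% rose and 11.5% fell, and in the signal range of the 56 genes 20% rose and 23% fell. Of 32 measured other replication genes 15 rose (46.9%), 6 fell (18.8%) and 11 did not pass, with a median log2 difference of 0.16. The maintenance DNA methyltransferase Dnmt1 rose by 0.90 ± 0.06 (SE), the crosslink repair gene Fancd2 by 0.98 ± 0.07 and the clamp unloader Atad5 by 0.85 ± 0.07. The accessory subunit Rnaseh2c of the enzyme that removes ribonucleotides fell by 0.97 ± 0.08, the helicase gene Pif1 by 0.67 ± 0.09 and Pclaf, a small PCNA-binding protein gene, by 0.43 ± 0.07.

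Of 14 measured genes that supply deoxynucleotides, 2 rose (14.3%), 7 fell (50%) and 5 did not pass, with a median of -0.20. The large ribonucleotide reductase subunit Rrm1 rose by 0.80 ± 0.07 (SE) and the alternative small subunit Rrm2b by 0.50 ± 0.06. The nucleotide kinases Nme1, which has a close paralog in Nme2, and Cmpk1 fell by 0.51 ± 0.07 and 0.45 ± 0.06, and Dut, which clears dUTP, by 0.33 ± 0.06. Of 24 S-phase control genes 2 rose (8.33%), 13 fell (54.2%) and 9 did not pass, with a median of -0.27. The count of those that rose was 1 without any 1 of the untreated replicates or without 4EGI-1 replicate 1 or 2. The checkpoint kinases Atr and Chek1 rose by 0.78 ± 0.07 and 0.24 ± 0.06. The transcription factor genes E2f4 and Tfdp1 fell by 0.55 ± 0.07 and 0.40 ± 0.06, and the kinase gene Wee1, which restrains cyclin-dependent kinases, by 0.49 ± 0.07. Differences between these lists and the fork and origin genes were not tested.

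**Figure D4:**
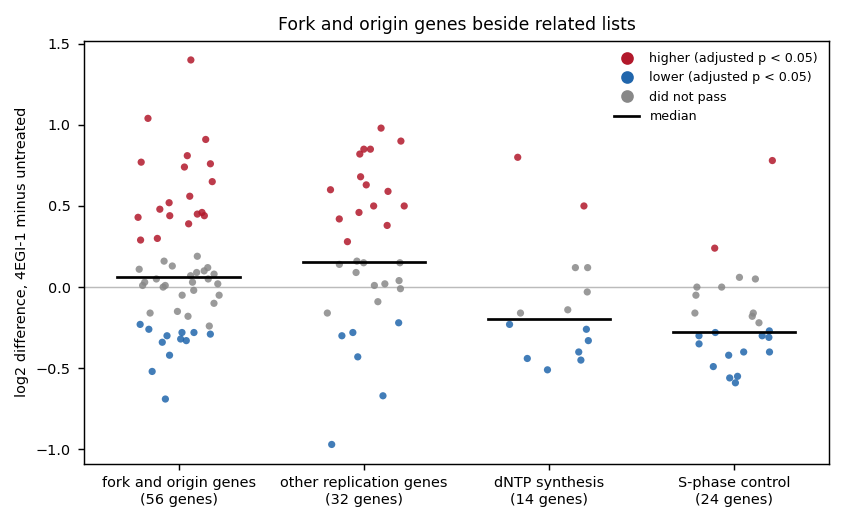
Log2 difference (4EGI-1 minus untreated) of each gene in 4 lists, coloured by limma call, with the median of each list as a line; sideways position carries no meaning. The medians are 0.06 for fork and origin genes, 0.16 for other replication genes, -0.20 for dNTP synthesis and -0.27 for S-phase control.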

How the data were processed

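The authors deposited log2 signals; the submitters' processing notes name RMA, whose version and settings the sources used here do not give. RMA makes arrays alike in distribution, so a value is relative to its own array. The platform annotation gives 21640 of the 34760 probe sets 1 symbol and 1321 several, and 11799 are not listed. Entrez identifiers matched 21553 to a RefSeq table (GRCm38.p6), which updated symbols. Of a gene's probe sets the brightest on average was used, for 19937 genes. Groups came from the titles.

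The test was limma 3.58.1 (R 4.3.3), two-sided and unfiltered, fitted to all arrays, with Benjamini-Hochberg adjustment over all genes; SE and intervals are moderated, with 8.15 degrees of freedom. In simulated data of 19937 genes, 67, 67 and 66 genes were changed by 0.25, 0.5 and 1. Of these 4.48%, 44.8% and 89.4% were recovered, and 2.13% of the 94 calls were false. The data gave 4573 calls, so the adjustment was stricter in the simulation. These shares therefore do not give the recovery in this comparison. No arrays of a group were near-identical (smallest median absolute difference 0.0927). The labels do not say that a number pairs samples, so none were paired. Deviations of same-numbered samples had correlations of 0.06, 0.11 and -0.02. However, 4 of the 6 arrays correlated best with the array of their own number, so pairing is not settled.

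Members and lists were chosen with earlier results of these data known, and promoter words after seeing the data. Per-array values are given for the 8 largest increases and 8 largest decreases that passed without overlap, all polymerase subunits, Pcna, Cdt1 and Gmnn; from other lists up to 3 genes per direction with the smallest adjusted p are named. Alternatives were a replicate block, 2 signal filters, every probe set or their mean, quantile normalization, centring outside the members, a trended robust prior, array weights, a stricter threshold (0.01) and each array left out.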

Additional observations from a re-analysis of the deposited data

How the results depend on the processing

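In 896 comparisons of a single replication gene under 16 alternatives, 843 kept their side of the threshold, 44 lost a call, 9 gained one and no called gene changed sign. Of the 31 genes that passed, 21 did so in every alternative and 8 lost the call when some array was left out. At an adjusted p under 0.01, 1488 genes were higher and 1248 lower over all genes, 5 replication genes were lower and 1 S-phase control gene was higher. Leaving out each array gave 7 to 10 replication genes lower and 17 to 19 higher, and 1 to 2 S-phase control genes higher. With the replicate number as a block 19 replication genes rose and 8 fell; Gins1 (adjusted p = 0.0507), Gins4 (0.0648), Pole4 (0.0581) and Rpa2 (0.0527) lost their calls, and 4 of the 6 arrays correlated best with the array of their own number. The medians of the polymerase sets stayed at 1.01 to 1.07 for Pola1, Pold1 and Pole and -0.09 to 0.00 for the other 9 subunits, the primase Prim1 among them. Averaging both of its probe sets put Top2a at 0.29. The planned description by protein length was not run, because no protein sequences were used here. Detection calls were not used here. All 56 genes lay above the median signal of the table, where small differences are more often called.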
